A study of Mus musculus with 2 samples.

Results

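In blood cells grown from mouse embryonic stem cells, Gata1 peaks were called at 324 sites far from any protein-coding gene. These distal peaks were 7.84% (95% Wilson interval 7.06 to 8.70%) of the 4133 nuclear peaks, out of 4135 peaks in all. A peak was counted as distal when its midpoint lay over 50 kb from the nearest protein-coding gene body and over 1 kb from the ends of genes of every biotype. The rule used position alone, so a distal peak could still lie inside a noncoding gene.

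The peaks came from a chromatin immunoprecipitation (ChIP-seq) library made with a rabbit anti-Gata1 antibody. Mouse embryonic stem cells were grown into embryoid bodies. At day 5, cells carrying both reporter signals, Runx1-ires-GFP and Gata1-mCherry, were sorted, and several sorts were pooled. The series describes these cells as primitive erythroid, the first red cells of the embryo, made here in culture. An input chromatin library from the same cells was the control by its title, although its antibody label names rabbit IgG, and it was not analysed here. The sources used here do not give the strain or sex of the stem cell line. A peak list carries no expression values, so the cell type could not be checked against marker genes. There was 1 ChIP library without a replicate, the list gave neither a score nor a read count, and the depth is unknown. Each site is therefore only called or not called, and every interval below covers counting alone.

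Gata1 is a zinc finger transcription factor that turns on red cell and megakaryocyte genes and binds the letters GATA with their flanking bases. It acts with FOG-1, Tal1, Lmo2 and Ldb1, and much of its binding falls at enhancers, which can sit far from the genes they control. A position between genes does not tell which gene, if any, a site controls. Flanking genes are named below only as landmarks.

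Sequence was at hand for parts of 3 distal peaks, where a transcription start inside a long noncoding RNA gene brought a RefSeq promoter window (GRCm38.p6, which mm10 also names) into the peak. They are shown because they are the distal sites where the bound DNA itself could be read. Each run is the part of the window inside the peak, written 5′ to 3′ on the strand of the noncoding gene. Capitals mark the GATA motifs AGATAA, or TGATAA, or AGATAG, or TGATAG, searched on both strands, so that a motif on the other strand appears as its reverse complement.
Gm32164, chr7:90060413-90060692, minus strand: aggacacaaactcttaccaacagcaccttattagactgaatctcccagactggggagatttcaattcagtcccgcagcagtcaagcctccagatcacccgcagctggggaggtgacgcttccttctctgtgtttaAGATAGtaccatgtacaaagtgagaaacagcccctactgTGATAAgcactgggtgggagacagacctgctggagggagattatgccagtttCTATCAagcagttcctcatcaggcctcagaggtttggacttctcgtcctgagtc
LOC105244755, chr5:64714717-64714902, minus strand: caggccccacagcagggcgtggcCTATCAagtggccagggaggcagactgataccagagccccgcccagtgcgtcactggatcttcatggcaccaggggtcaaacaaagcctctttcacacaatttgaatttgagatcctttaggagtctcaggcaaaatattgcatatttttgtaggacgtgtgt
Gm30262, chr10:111595664-111595721, plus strand: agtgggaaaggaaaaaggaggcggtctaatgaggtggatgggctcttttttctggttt

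The Gm32164 part covered 280 of the 400 bp of its peak and held 3 GATA motifs. They lay 62 and 23 bp above and 29 bp below the midpoint of the peak by coordinate. An annotated start site 30 bp from the midpoint fell inside the lowest of the 3 motifs, and the other two lay upstream of it. The same slice held such a motif in 27.8% of all 32851 promoter windows. The LOC105244755 part of 186 bases held 1 motif, 40 bp below the midpoint, against 22.0% of windows with a motif in that slice. The Gm30262 part was 58 bases at the edge of its peak and held none, where 5.15% of windows held a motif. That says only that these letters are absent from that stretch. Over whole windows of 300 bases, 29.8% held a GATA motif. The remaining 321 distal peaks were not read as sequence, so no share of distal peaks with a motif is given.

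Distal sequence was sparsely bound for its size. The territory that met the rule covered 953 Mb, 35.8% of the 2662 Mb annotated span, and held 0.340 peaks per Mb (95% exact Poisson interval 0.304 to 0.379). The rest of the span held 2.23 peaks per Mb (2.16 to 2.30), with 3809 peaks on 1709 Mb. The ratio was 0.153 (95% interval 0.136 to 0.171, two-sided exact binomial test, adjusted p at most 7.0e-300 over 7 tests). These tests treat peaks as independent, which peaks that lie in groups are not. Assembly gaps were not removed from the territory.

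Within distal territory, Gata1 sites thinned out with distance from coding genes. The median distal peak lay 106 kb from the nearest coding gene (quartiles 72.7 and 177 kb, range 50.6 to 1100 kb). Between 50 and 100 kb there were 152 peaks, 46.9% of the distal peaks, at 0.720 per Mb (0.610 to 0.844). The density was 0.437 per Mb (0.356 to 0.531) from 100 to 200 kb and 0.180 (0.135 to 0.236) from 200 to 500 kb. Beyond 500 kb, 17 peaks remained on 215 Mb, or 0.0792 per Mb (0.0461 to 0.127). The density from 50 to 100 kb was 5.23 times that over 200 kb (3.92 to 7.05, two-sided exact binomial test, adjusted p = 1.0e-32).

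The 50 kb limit did not mark a break in this slope. In sequence outside all genes, the density was 1.94 peaks per Mb from 1 to 10 kb, 1.21 from 10 to 25 kb and 0.959 from 25 to 50 kb. It was 0.640 from 50 to 100 kb on the same footing. The members nearest to the limit were 50.6 kb from Trabd2b, 50.6 kb from Ahctf1 and 50.8 kb from Myc. The peaks just outside it lay 49.8 kb from Frem1, 49.8 kb from Lao1 and just under 50 kb from Elp3.

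**Figure D1:**
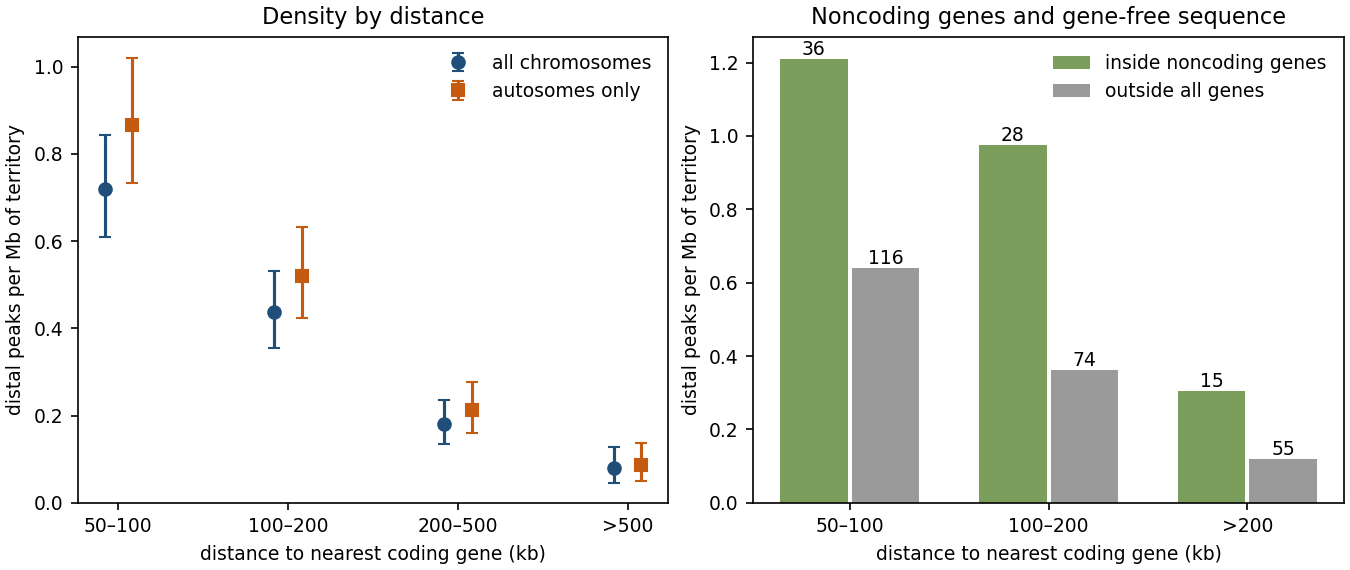
Distal Gata1 peaks per Mb of distal territory (vertical axes, linear) against the distance to the nearest protein-coding gene in kb. Left, points with 95% exact Poisson intervals fall from 0.720 between 50 and 100 kb to 0.0792 beyond 500 kb over all chromosomes, and from 0.867 to 0.0859 on autosomes. Right, bars compare territory inside noncoding genes with territory outside all genes, with the number of peaks above each bar.

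Long noncoding RNA genes held more than their share of the distal peaks. Of the 324, 79 (24.4%, 20 to 29.3%) lay inside a noncoding gene, over 1 kb from its ends, and 245 lay outside all genes. Noncoding gene bodies carried 0.735 distal peaks per Mb (0.582 to 0.916) and gene-free territory 0.290 (0.255 to 0.328). The ratio was 2.54 (1.94 to 3.28, two-sided exact binomial test, adjusted p = 1.1e-10). Noncoding genes take up more of the territory close to coding genes, 14.1% of it from 50 to 100 kb and 9.66% beyond 200 kb. Within each distance range the ratio stayed above 1, at 1.90 (1.27 to 2.78) from 50 to 100 kb, 2.70 (1.68 to 4.22) from 100 to 200 kb and 2.55 (1.34 to 4.58) beyond 200 kb.

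The 79 peaks lay in 71 noncoding genes, of which 68 were long noncoding RNA genes. Pvt1, the long noncoding RNA gene beside the growth regulator Myc, held 4 peaks in its 222 kb, the most of any. Gm32543, which lies near Cited2, held 3 in 169 kb. Gm29683 near Nr2f2, Gm32679 between Opa1 and Hes1, Gm33370 between Anxa3 and Bmp2k, Gm36743 near Bmper and Gm553061 between Mbnl1 and P2ry1 held 2 each. The other hosts held 1 peak each, and 2 of the peaks lay where a pair of these genes overlap. Among those with a name other than a predicted or clone name were Junos, whose peak lay 105 kb from the AP-1 gene Jun, and Lncpint, whose peak lay 149 kb from Klf14. Banf2os and D5Ertd615e held 1 each.

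Distal peaks fell in 257 of the 2969 intervals between neighbouring coding genes that contain distal territory, 8.66% of them. The median territory was 0.267 Mb in intervals with a distal peak and 0.114 Mb in those without. In 50 intervals there were 2 or more, and these held 117 of the 324 peaks. The most in any interval was 4, reached by 5 intervals, and 7 more held 3. Those 12 intervals are described next, those with 4 peaks first.

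The densest was on chromosome 7, between Klf13, a relative of the erythroid factor Klf1, and the predicted gene Gm45988. It held 4 peaks on 0.0860 Mb of territory, or 46.5 per Mb (12.7 to 119). They lay 58.0, 111, 112 and 120 kb above Klf13, the last 3 within 9.12 kb of each other. The first was at chr7:63996680-63997079, inside Gm32633, and the last at chr7:64058404-64058803, inside Gm20670. The last 3 lay nearer to Gm45988, at 81.4, 80.3 and 72.3 kb. All 4 lay on the start side of their nearest coding gene, the side from which transcription begins.

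Bmp4 encodes a bone morphogenetic protein, a signal that directs mesoderm towards blood. On chromosome 14, 4 peaks lay between it and Cdkn3, at 149, 188, 193 and 272 kb above Bmp4. The territory there was 0.243 Mb, which gave 16.5 peaks per Mb (4.48 to 42.1). Those at 188, 193 and 272 kb lay nearer to Cdkn3, at 182, 177 and 98.0 kb. Another peak lay 534 kb below Bmp4, nearer to Ddhd1. In all, 5 distal peaks flanked Bmp4, and it was the nearest coding gene only of the one at 149 kb.

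Between Phlda1 and Krr1 on chromosome 10, 4 peaks stood on 0.334 Mb of territory (12 per Mb, 3.26 to 30.6). They were 67.4, 87.2, 161 and 411 kb above Phlda1, the last 53.1 kb from Krr1. The second, at chr10:111595664-111596063, is the Gm30262 site whose edge is printed above.

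Myc had 4 distal peaks above it on chromosome 15, at 50.8, 169, 231 and 233 kb, and every one lay inside Pvt1. In the interval of 1.79 Mb to Gsdmc, no distal peak lay farther than 233 kb from Myc. No Gata1 peak of any class lay within 10 kb of Myc itself. The last 2 peaks, at chr15:62221091-62221490 and chr15:62223106-62223505, were 2.02 kb apart.

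Cited2, a transcriptional coregulator needed for normal fetal blood formation, borders a desert of 2.95 Mb on chromosome 10. Its 4 distal peaks all lay on the start side of Cited2, at 122, 127, 133 and 644 kb. The nearest 3 formed a group spanning 10.6 kb inside Gm32543, from chr10:17590186-17590585 to chr10:17600765-17601164. Cited2 also had a Gata1 peak within 10 kb of the gene. Towards Nmbr at the far side, the next 2307 kb held no distal peak.

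The intervals with 3 distal peaks included Runx1, the blood transcription factor whose reporter was used to sort the cells. Its 3 peaks lay 57.9, 304 and 322 kb above the gene, on the start side, and the nearest was at chr16:92883734-92884133. The peak at 304 kb lay inside Gm30474. Runx1 had a Gata1 peak within 10 kb as well.

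Near Hes1, a target of Notch signalling, 3 peaks lay at 119, 218 and 226 kb below the gene on chromosome 16, in the interval that starts at Opa1. Those at 218 and 226 kb lay nearer to Opa1, at 184 and 176 kb. The interval from Nudt4 to Eea1 on chromosome 10 held 3 within 158 kb of Nudt4. Slco3a1 to Sv2b on chromosome 7 held 3, of which 2 were 1.84 kb apart. In the interval from Nphp4 to Ajap1 on chromosome 4 they lay 300, 378 and 754 kb above Nphp4, the last 56.0 kb from Ajap1. Zfp608 to Gramd3 on chromosome 18 held 3 on 1.24 Mb of territory (2.41 per Mb, 0.497 to 7.04), the lowest density of these intervals apart from Nmbr to Cited2 at 1.43 per Mb (0.390 to 3.66).

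The other interval with 3 peaks was the start of chromosome 9, below Alkbh8, where peaks lay at chr9:2999930-3000329, chr9:3022000-3022399 and chr9:3024472-3024871. This is the repeat-rich beginning of the assembled chromosome. The lone peak at chr2:98663702-98664101, 1032 kb above Lrrc4c, lies in a stretch known for high signal in many mouse sequencing libraries. Read mapping was not examined, and the part of these features in the calls was not tested. Without these 4, distal peaks were 320 of 4129 (7.75%), and the density was 0.170 per Mb from 200 to 500 kb and 0.0745 beyond 500 kb. The other distal peaks were not screened for such stretches, so some that lie in them may remain.

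**Figure D2:**
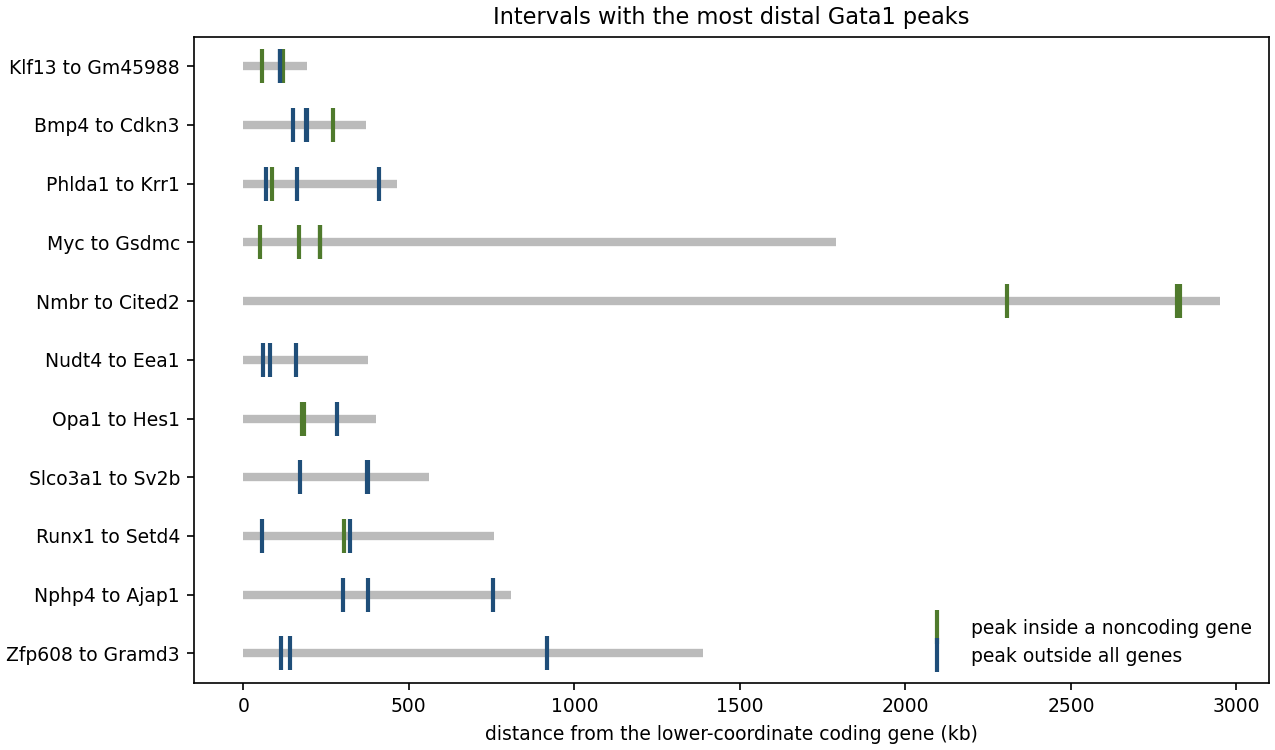
The 11 intervals between coding genes with 3 or 4 distal Gata1 peaks, leaving out the start of chromosome 9. Grey bars run from the end of the lower-coordinate gene to the start of the higher-coordinate gene, and ticks mark peak midpoints in kb from the lower gene, green inside a noncoding gene and blue outside all genes. All 4 peaks beside Myc and all 4 beside Cited2 are green, and they sit toward those genes and away from the other end of the interval.

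Some distal sites lay more than 500 kb from every coding gene. The farthest 10 ranged from 655 to 1100 kb. The farthest of all, chr15:46480230-46480629, lay inside 4930523O13Rik, 1365 kb above Kcnv1 and 1100 kb below Csmd3. Next were a site 1087 kb below Dsc3 on chromosome 18, with Cdh2 on its other side, and the chromosome 2 peak named above, which faces Iftap at 2897 kb. Others lay between Adgrl2 and Adgrl4 (1021 kb from the nearer), Lcorl and Slit2 (978 kb), Mdga2 and Rps29 (921 kb) and Ets1 and Kirrel3 (779 kb). The remaining ones lay between Fbxo15 and Neto1 (697 kb), Gfra2 and Gm9195 (689 kb) and Arpp21 and Pdcd6ip (655 kb). Among these flanking genes Ets1, which encodes an ETS factor of blood and endothelium, also had a Gata1 peak within 10 kb. Cdh2, Mdga2 and Kirrel3 encode cell adhesion proteins, and Slit2 a guidance cue for axons.

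Distal peaks lay farther from the next peak than other peaks did, in territory with fewer peaks per Mb (0.340 against 2.23). The part of that lower density in the spacing was not tested. The median distance to the next peak of any class was 178 kb for distal peaks, 63.5 kb for other nuclear peaks and 59.4 kb for the 712 intergenic peaks within 50 kb of a coding gene. For 121 distal peaks the next peak was also distal, and for 203 it was not. A peak within 10 kb was found for 41 distal peaks (12.7%, 9.47 to 16.7%), for 649 of 3809 others (17%, 15.9 to 18.3%) and for 128 of 712 intergenic ones (18%, 15.3 to 21.0%). Neither difference passed the threshold (odds ratios 0.705 and 0.661, two-sided Fisher's exact test, adjusted p = 0.051 for both). Before adjustment, Fisher's exact test gave p = 0.043 and 0.037. The 7 tests adjusted together included the comparison by strand, which was added after the data were seen. The result depended on the setting. Both passed at a distance of 25 kb (odds ratios 0.559 and 0.502, two-sided Fisher's exact test, adjusted p = 6.5e-05 and 2.4e-05). Neither passed at a distance of 5 kb (odds ratios 0.724 and 0.847, two-sided Fisher's exact test, adjusted p = 0.16 and 0.56). Neither passed with a coding distance of 100 kb. Both passed without the 4 peaks on chromosomes 2 and 9 (odds ratios 0.676 and 0.633, two-sided Fisher's exact test, adjusted p = 0.033 and 0.031). That omission was added after the data were seen and took peaks from the distal class only.

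Where distal peaks did lie together, they formed 17 groups with neighbours within 10 kb, which held 36 peaks in 15 pairs and 2 groups of 3. The groups of 3 were the one between Klf13 and Gm45988, nearer to Gm45988, and the one beside Cited2. The tightest pairs were 0.577 kb apart, at chr8:121382242-121383218 between Foxl1 and 1700018B08Rik and at chr11:64800741-64801717 between Hs3st3a1 and Elac2. A pair at chr6:122393621-122394624 between Phc1 and Rimklb was 0.604 kb apart. Other pairs lay between Irs2 and Col4a1 (8.03 kb apart), Spring1 and Med13l (5.52 kb), Commd10 and Sema6a (5.41 kb), Ddit4l and H2az1 (4.76 kb) and Bbs9 and Bmper (3.54 kb). The rest were beside Zbtb10, Anxa3, Sv2b, Cdkn3, Myc and Opa1 and at the start of chromosome 9. Positions cannot show whether such a pair is 1 bound region or more.

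Each gene that borders a distal peak on either side was then counted. Of 21779 protein-coding genes, 502 (2.30%) flanked a distal peak. Only the 4723 that bordered distal territory could do so. Fixed lists of genes were described by how many members flanked a distal peak and by the density of distal peaks in the territory beside them, with no test of the lists. The density over all distal territory was 0.340 per Mb.

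A few genes of blood cytokine and growth factor signalling had distal peaks beside them. Of 25, 4 flanked a distal peak (16%) and the others did not, with 9 peaks on 3.49 Mb of territory, or 2.58 per Mb (1.18 to 4.90). Bmp4 accounted for 5 of the 9, but was the nearest coding gene only of the one at 149 kb. Kit, the stem cell factor receptor that red cell progenitors need to survive, had 2, at 114 and 137 kb on its start side, the nearer at chr5:75460514-75460913. Pim1, a survival kinase induced by cytokines, had 1 at 52.2 kb. Btg1, a restrainer of growth, had 1 at 413 kb that lay nearer to Eea1.

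Among 36 blood transcription factors, 3 flanked a distal peak (8.33%), with 11 peaks on 11.8 Mb, or 0.930 per Mb (0.464 to 1.66). The 3 were Myc with 4 of the peaks, Runx1 with 3 and Cited2 with 4. The intervals of the lists treat peaks as independent, although some of these lie in groups with neighbours within 10 kb. Of the other developmental regulators followed, Gata2, Lmo2, Myb, Gata6, Meis1, Bcl11a, Sox6, Hhex, Etv6 and Id2 flanked none. Meis1 and Bcl11a border 1.57 and 2.14 Mb of distal territory without a distal peak. Gata2 and Hhex border no distal territory, so no distal peak could lie beside them. Gata2, Gata6, Meis1, Sox6, Hhex and Etv6 each had a Gata1 peak in the gene or up to 10 kb away, and Lmo2, Myb, Bcl11a and Id2 had none.

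Red cell structure and haem genes had little distal territory at all. The 10 globin genes bordered none, and the 25 haem and iron genes bordered 0.0485 Mb, with no distal peak. Of 25 red cell membrane genes, Slc2a1, which encodes the glucose transporter Glut1, flanked 2 distal peaks at 72.0 and 86.1 kb, on 0.723 Mb for the list. That gave 2.77 per Mb (0.335 to 9.99), above the signalling genes in value, with a wide interval that includes the density over all territory. Both peaks lay nearer to Lao1, on the other side, so no gene of the list was the nearest to a distal peak. Megakaryocyte genes had 0 of 22, with 0 peaks on 0.644 Mb (upper limit 5.72 per Mb).

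Genes of other lineages in the embryoid body had densities whose intervals include the value over all territory. The values for cardiac and pluripotency genes were nonetheless close to the 0.930 per Mb of the blood transcription factors. A distal peak was flanked by 19.0% of pluripotency, 15.4% of cardiac and mesoderm and 12.5% of endothelial genes. The shares were 16% for the signalling genes and 8.33% for the blood transcription factors. The lists differed in how many members border distal territory and so could flank a distal peak. These were 12 of 21 pluripotency, 13 of 26 cardiac and mesoderm and 10 of 24 endothelial genes. They were 13 of 25 signalling genes and 16 of 36 blood transcription factors, against 4723 of 21779 over all protein-coding genes. The part of this in the shares was not tested. Among 26 cardiac and mesoderm genes, Tbx20 (74.2 kb), Tbx5 (90.0 kb), Mef2c (121 kb) and Pdgfra (240 kb) flanked a distal peak, with 0.851 peaks per Mb (0.276 to 1.99). The 2 peaks beside Pdgfra are those beside Kit. Of 21 pluripotency genes, Klf4 (73.5 kb), Sall4 (74.3 kb), Tbx3 (181 kb) and Sox2 (454 kb) did, with 0.925 per Mb (0.300 to 2.16). Of 24 endothelial genes, Mef2c, Sox17 (157 kb) and Ets1 (779 kb) did, with 0.471 per Mb (0.0971 to 1.38). Cebpb (111 kb) was the single myeloid gene of 21, and Sox17 the single endoderm gene of 19, although Mrpl15 lay nearer to its peak.

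Distal territory beside neuronal adhesion genes held few sites. The 38 genes of neuronal adhesion and synapse bordered 91.4 Mb of distal territory, with 3 peaks, or 0.0328 per Mb (0.00677 to 0.0959). Those peaks were beside Cdh18, Cdh2 and Cdh8, cadherin genes, at 1825, 2065 and 2873 kb from them. No gene of this list was the nearest to a distal peak or lay within 500 kb of one that it flanked. The 24 neural genes bordered 10.5 Mb with no distal peak (upper limit 0.353 per Mb). None of 26 housekeeping genes flanked a distal peak, on 0.130 Mb.

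Neuronal adhesion genes bordered more distal territory than any other list, and density fell with distance from genes. In territory from 50 to 200 kb of a coding gene, where the density over all genes was 0.572 per Mb (0.503 to 0.646), neuronal adhesion genes had 1 peak on 15.0 Mb (0.0666 per Mb, 0.00169 to 0.371). There the signalling list had 3.12 per Mb (1.43 to 5.92) and the blood transcription factors 1.87 (0.685 to 4.06). The order of these 3 lists was the same in this range, inside which distance was not matched further. The intervals of the signalling genes and the blood transcription factors overlap. Cardiac and mesoderm genes had 1.64 per Mb (0.533 to 3.83) there, pluripotency genes 1.21 (0.249 to 3.53) and endoderm genes 0.456 (0.0115 to 2.54). The part of distance in the differences between lists was not tested.

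**Figure D3:**
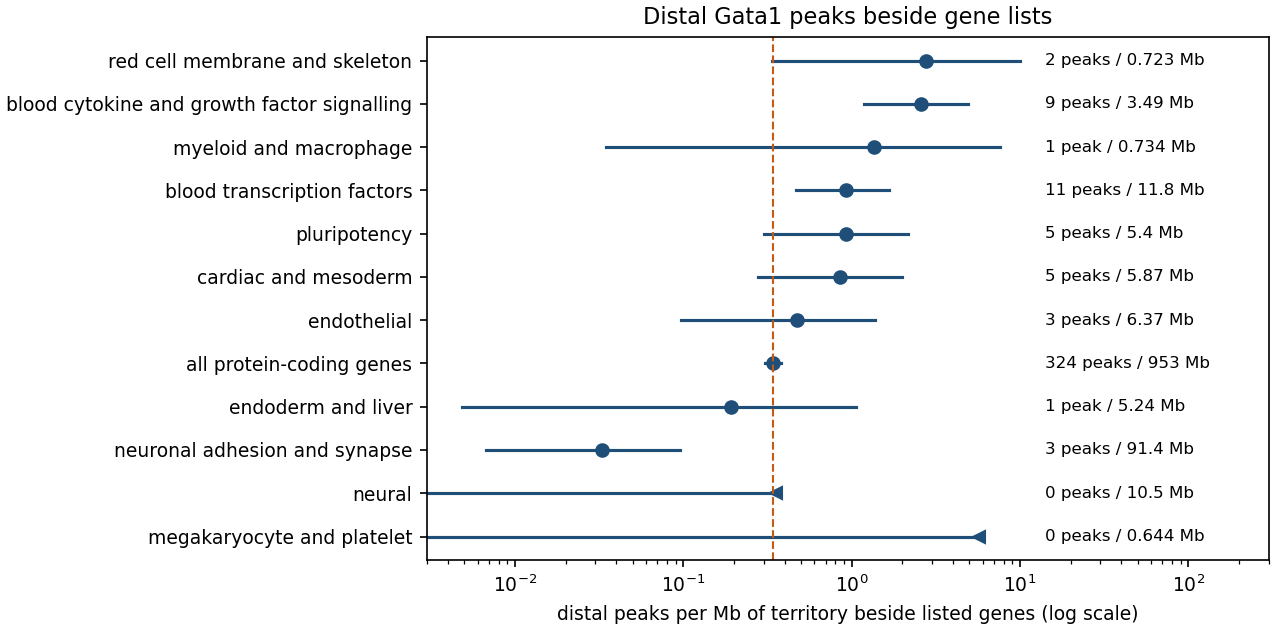
Distal Gata1 peaks per Mb of distal territory beside the genes of each list (horizontal axis, log scale), with 95% exact Poisson intervals, for lists with over 0.5 Mb of territory. Left-pointing arrows mark the upper limits of lists with no peak, and the dashed line is the 0.340 per Mb of all distal territory. Signalling genes lie above the line at 2.58 and neuronal adhesion genes below it at 0.0328.

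Most coding genes beside distal peaks had no Gata1 peak of their own, as was true of protein-coding genes in general. Of the 502 flanking genes, 103 (20.5%, 17.2 to 24.3%) had a Gata1 peak of their own, inside or up to 10 kb outside the gene body. The same held for 560 of the 4221 genes (13.3%, 12.3 to 14.3%) that border distal territory without a distal peak, for 2935 of the 17056 genes (17.2%) that do not border distal territory, and for 16.5% of all protein-coding genes. No difference between these groups was tested. The first and second groups differed in gene length, with medians of 45.0 and 31.9 kb, and the part of length in the result was not tested. Seen from the peaks, the nearest coding gene had its own peak for 78 of 324 (24.1%, 19.7 to 29.0%).

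Distal peaks were found on either side of genes. The strand of the nearest coding gene could be read for 244 distal peaks. On the side of the gene's start there were 137 peaks (0.353 per Mb of territory on that side) and on the side of its end 107 (0.302 per Mb). The ratio was 1.17 (0.900 to 1.52, two-sided exact binomial test, adjusted p = 0.25), and it did not pass the threshold. The interval allows a density on the start side from 0.900 to 1.52 times that on the end side.

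Among chromosomes, the autosomes ranged from 0.236 distal peaks per Mb of territory on chromosome 8 to 0.600 on chromosome 10, with overlapping intervals. The X held 2 distal peaks on 73.4 Mb of territory, 0.0272 per Mb (0.00330 to 0.0984), against 0.394 (0.352 to 0.440) on the autosomes. The ratio was 0.0691 (0.00833 to 0.252, two-sided exact binomial test, adjusted p = 1.4e-09). The X sites were chrX:12312704-12313103, 152 kb from Bcor, a corepressor gene, and chrX:75673770-75674169, 95.7 kb from Rab39b and inside a pseudogene. The Y held 1 on 64.9 Mb. The X was sparse in peaks of every class, with 42 of the 4133 nuclear peaks. Of these, 4.76% were distal, against 7.84% over all chromosomes. The number of X chromosomes in these cells was not examined.

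**Figure D4:**
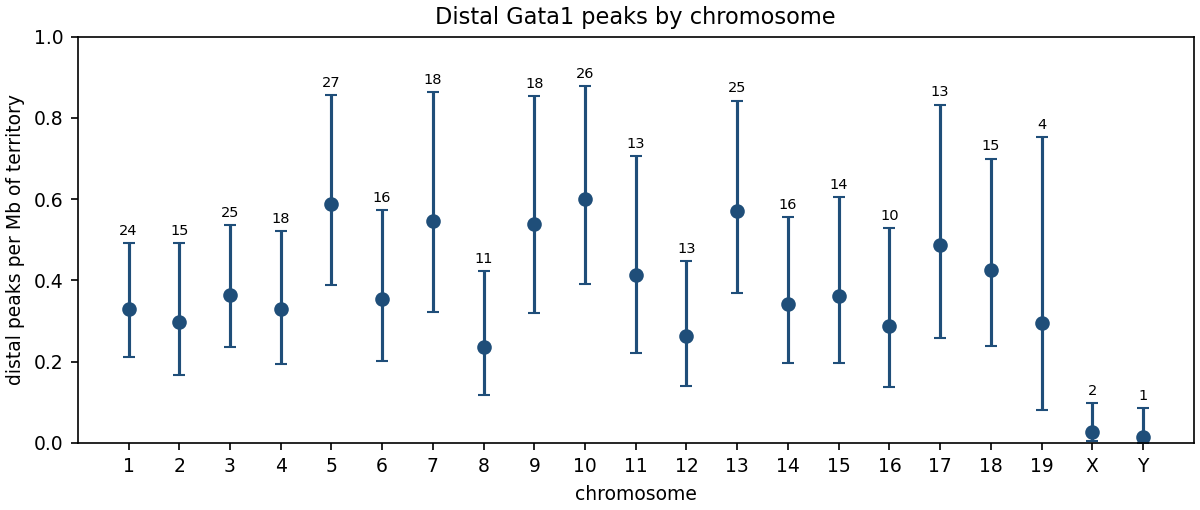
Distal Gata1 peaks per Mb of distal territory (vertical axis, linear) on each chromosome, with 95% exact Poisson intervals and the number of distal peaks above each. The autosomes lie between 0.236 and 0.600, and the X (0.0272) and Y (0.0154) lie below all of them.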

How the data were processed

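Peak positions were deposited by the authors as chromosome, start and end, each peak 400 bp wide, without a score. Per the submitters' processing notes, Bowtie2 2.0.6, MACS2 2.0.10 and build mm10 were used. The sources used here do not give the settings, threshold, filters or use of the control. Per the labels' protocols, fragments of 150 to 400 bp were selected.

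Gene positions came from RefSeq (GRCm38.p6), leaving out 340 entries below 3 Mb on autosomes and the X, which left 49603 genes (21779 protein-coding). Distal territory is the set of midpoints that meet the rule between 3 Mb, or the first gene on the Y, and the last gene. The strand came from RefSeq promoter windows, which hold 80.3% of coding genes. All 1839 overlapping windows on opposite strands matched as reverse complements, so windows are read in gene direction. Densities were compared by two-sided exact binomial tests and shares by Fisher's exact test, with Benjamini-Hochberg adjustment over 7 tests and a threshold of 0.05. The comparison of noncoding genes with gene-free territory was tried on simulated peaks placed independently. Grouped peaks and the other density comparisons were not simulated. The planned motif test needs a genome sequence and was not run. Python 3.11.15, numpy 2.4.6, scipy 1.17.1 and pandas 2.3.3 were used.

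Members, lists and rules were chosen with earlier results of these data known. The rule named the 12 intervals with the most distal peaks, the 10 farthest peaks, groups within 10 kb, list members beside distal peaks, noncoding hosts, 14 fixed genes and peaks at the limit. The site of 1 noncoding host is not reported here. The comparison by strand, the density within distance ranges, the omission of 4 peaks, and the fits on autosomes only for noncoding genes, strand and spacing were added after the data were seen. Alternatives were a coding distance of 100 kb, gene ends at 2.5 kb, runs of peaks counted once, whole intervals, autosomes only, noncoding genes without pseudogenes, neighbour distances of 5 and 25 kb, and other definitions of a flanking gene.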

Additional observations from a re-analysis of the deposited data

How the results depend on the processing

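The lower density in distal territory (ratio 0.112 to 0.166), its fall with distance (3.18 to 5.55), the higher density inside noncoding genes (2.21 to 2.84) and the low density on the X (0.0693 to 0.0769) stayed on the same side of 1 and passed the test in every alternative run for them. The share of distal peaks was 4.16% with a coding distance of 100 kb and 6.99% with gene ends at 2.5 kb, which narrow the class by construction. Counting only the single nearest coding gene left 270 genes beside a distal peak. It moved the counts of red cell membrane (1), endoderm (1) and neuronal adhesion genes (3) to 0, as did a limit of 500 kb for the last. The ratio of start side to end side was 0.959 at 100 kb, and the cause was not tested. The spacing difference within 10 kb passed the threshold under several settings, against other and intergenic peaks in turn. The odds ratios were 0.581 and 0.561 with gene ends at 2.5 kb, 0.687 and 0.645 with whole intervals, 0.559 and 0.502 at 25 kb, and 0.676 and 0.633 without the 4 peaks on chromosomes 2 and 9. On autosomes only it passed against intergenic peaks (0.658) but not against other peaks (0.709). It did not pass at 5 kb (0.724 and 0.847) or with a coding distance of 100 kb (0.684 and 0.666). Over all alternatives the adjusted p of Fisher's exact test ranged from 6.5e-05 to 0.16 and from 2.4e-05 to 0.56, and the cause was not tested. Runs counted once give no value for spacing. No stricter peak threshold could be set, since the list has no score. No paired analysis was possible because there was 1 ChIP library.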
